A study of Ovis aries with 62 samples.

Results

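*OAS2*, *DHX58* and *MX1* are interferon-induced genes, and their messenger RNA was measured in the ventral rumen wall of 62 AUS sheep. The 3 genes were chosen by name, from gene IDs that the study pairs with symbols: ENSOARG00000009097 for *OAS2*, ENSOARG00000018383 for *DHX58* and ENSOARG00000010283 for *MX1*. They are 3 of the 16011 genes in the expression table. The animals were adult Merino ewes by 4 sires, fed the same mixed lucerne and oat chaff diet above maintenance, and each gave 1 full-thickness wall sample and 1 RNA sequencing library. The ewes passed through the experiment in test periods called blocks, and blocks 1 to 4 held 16, 16, 14 and 16 of them. No ewe was treated, no group carries an allele of its own, and sire is not in the sample labels, so no test accounts for relatedness and each *p* treats the sheep as independent.

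Interferons are secreted when a cell senses viral nucleic acid. Type I interferons bind a receptor present on most cell types and, through JAK kinases and STAT transcription factors, switch on a battery of antiviral genes. *DHX58* encodes LGP2, a RIG-I-like receptor that binds double-stranded RNA and tunes the signaling of its relatives RIG-I and MDA5. *OAS2* encodes an oligoadenylate synthetase, which on binding double-stranded RNA makes the small molecule that activates RNase L. *MX1* encodes a dynamin-like GTPase that blocks the replication of influenza and other viruses, and in ewes it is also known as a gene induced by the interferon of the early conceptus. The rumen wall joins a stratified epithelium, which faces the rumen microbes, to layers of smooth muscle, and a full-thickness sample holds both.

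Levels are log2 CPM, with CPM the read count scaled to library size. Libraries held 4208032 to 12130080 assigned reads, with a median of 7923973. *OAS2* rested on 76 to 3140 reads per library, *DHX58* on 29 to 443 and *MX1* on 47 to 6534, so all 3 genes were detected in all 62 sheep. As a check of tissue, 13 of 16 contractile smooth muscle genes fixed for this purpose had a symbol in the table, and their mean lay between 8.77 and 11.54 log2 CPM. The mean of 43 genes that the study lists for epithelial differentiation lay between 5.70 and 8.23 log2 CPM. None of 25 leukocyte and endothelial markers fixed for the same purpose had a symbol in the tables used here, so the level of those cell types was not read. The wall sample is a bulk sample, and more cells that express an interferon-induced gene cannot be told apart from more of its RNA per cell.

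*OAS2* had its lowest mean in block 1 and a higher mean in each later block. The lowest, median and highest block 1 sheep had 3.69, 4.66 and 6.38 log2 CPM, compared with 4.73, 5.73 and 6.77 in block 2. Block 3 sheep had 4.78, 6.29 and 8.41 log2 CPM by the same measures, and block 4 sheep 4.80, 6.57 and 7.87. The ranges of the blocks overlapped, but 8 of the 16 block 1 sheep lay below every sheep of blocks 2–4. Block means were 4.79 ± 0.72, 5.72 ± 0.61, 6.34 ± 1.00 and 6.49 ± 0.95 log2 CPM for blocks 1 to 4 (SD, *n* = 16, 16, 14 and 16). As linear CPM, the block medians were 25.3, 53.1, 78.2 and 95.2.

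*DHX58*, the RNA sensor, had the same order of blocks over a narrower range. The lowest, median and highest block 1 sheep had 2.37, 3.10 and 4.13 log2 CPM, and those of block 2 had 2.37, 3.91 and 4.51. In block 3 they had 3.26, 4.38 and 5.59 log2 CPM, and in block 4 they had 3.42, 4.49 and 5.67. All 16 block 1 sheep were under the median of sheep from blocks 2–4, and 15 of 16 block 4 sheep were over the median of sheep from blocks 1–3. Block means were 3.23 ± 0.49, 3.83 ± 0.54, 4.32 ± 0.68 and 4.59 ± 0.66 log2 CPM for blocks 1 to 4 (SD). The block medians as linear CPM were 8.60, 15.1, 20.9 and 22.4.

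*MX1*, the antiviral GTPase, split the blocks differently, with blocks 1 and 2 low and blocks 3 and 4 high. The lowest, median and highest block 1 sheep had 3.00, 4.16 and 6.07 log2 CPM, and those of block 2 had 3.31, 4.60 and 5.99. In block 3 they had 3.77, 6.11 and 9.47 log2 CPM, and in block 4 they had 2.95, 5.78 and 7.84. Both the highest and the lowest level of *MX1* among the 62 sheep were found in the later blocks, the highest in block 3 and the lowest in block 4. Block means were 4.29 ± 0.90, 4.64 ± 0.81, 6.07 ± 1.44 and 5.86 ± 1.38 log2 CPM for blocks 1 to 4 (SD), and the medians as linear CPM were 17.9, 24.4, 69.1 and 55.1. The spread among sheep of blocks 3 and 4 was wider than in blocks 1 and 2, whereas the fit described below uses a single spread for all blocks.

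**Figure D1:**
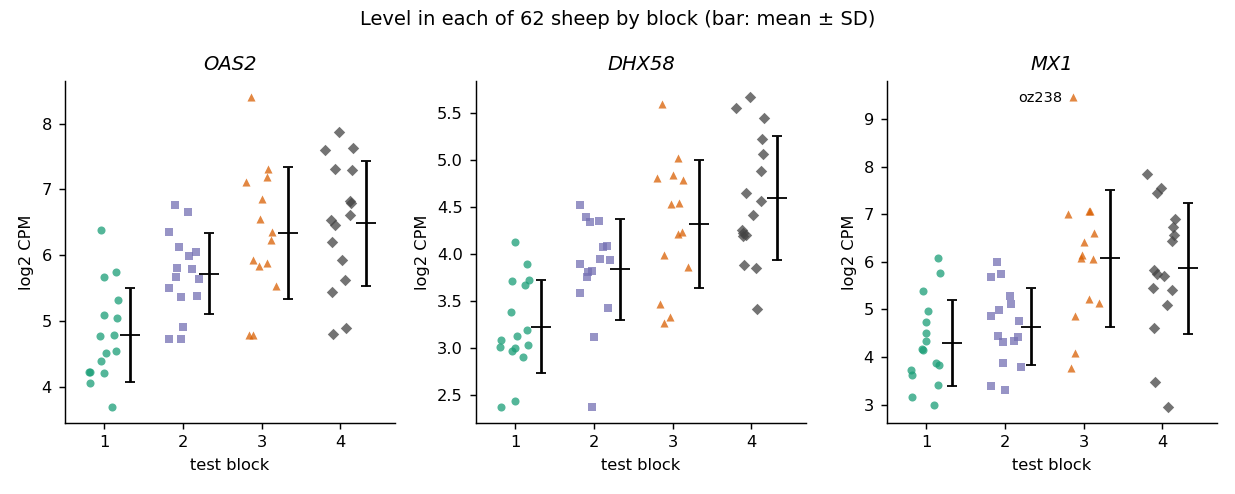
Level (log2 CPM, vertical axis) of *OAS2*, *DHX58* and *MX1* in each of 62 sheep by test block 1 to 4 (horizontal axis), each point a sheep and each bar the block mean ± SD. Block 1 has the lowest mean in all 3 panels, *MX1* has means of 4.29 and 4.64 in blocks 1 and 2 against 6.07 and 5.86 in blocks 3 and 4, and sheep oz238 stands above all others for *MX1*.

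All 3 genes differed between the 4 blocks. The F test of limma, with Benjamini-Hochberg adjustment over all 16011 genes, gave adjusted *p* = 1.12e-05 for *OAS2*, 2.90e-06 for *DHX58* and 0.000388 for *MX1*, in a table where 26.5% of all genes were called. Each call also held with the mean of the study's muscle genes as a covariate (highest adjusted *p* 0.0120, for *MX1*), where 1428 of all 16011 genes were called.

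Block 1 was the low block. *OAS2* was lower in block 1 than in the mean of the other blocks by a log2 difference of -1.39 (SE 0.231, limma adjusted *p* = 3.30e-06), and 15 of 16 block 1 sheep lay below the median of the rest. *DHX58* was lower by -1.02 (SE 0.167, adjusted *p* = 2.60e-06). *MX1* was lower by -1.23 (SE 0.322, adjusted *p* = 0.00195), with 14 of 16 sheep below the median of the rest. Of all genes, 19.4% were lower in block 1, so a lower level in block 1 was common in this table, and the median difference over all genes was -0.01.

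Block 1 also stood apart in the mean RNA level of muscle and epithelial genes. The mean of 647 genes that the study lists as muscle was 6.24 ± 0.33 log2 CPM in block 1 and 5.82 ± 0.33 in blocks 2–4 (SD, *n* = 16 and 46), and the epithelial differentiation mean was 7.16 ± 0.75 in block 1 and 7.83 ± 0.26 in blocks 2–4. Of the block 1 sheep, 7 had an epithelial mean below that of every later sheep. Assigned reads averaged 6698638 in block 1 and 8408734 in blocks 2–4. With depth as a covariate all 3 genes were still called lower, against 2445 of all 16011 genes.

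With the muscle mean as a covariate, *OAS2* remained lower in block 1, by -1.01 (SE 0.249, limma adjusted *p* = 0.00332), as did *DHX58*, by -0.76 (SE 0.181, adjusted *p* = 0.00256). *MX1* differed by -0.84 (SE 0.358) and was no longer called (adjusted *p* = 0.104). Without the 7 sheep of low epithelial mean, the block 1 difference was -1.28 for *OAS2* (adjusted *p* = 0.00657), -0.94 for *DHX58* (0.00765) and -1.23 for *MX1* (0.0724), so the size of the *MX1* difference was kept while its call was not.

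Pairs of blocks gave the steps between neighbors. Block 2 was higher than block 1 by 0.93 for *OAS2* (SE 0.281, limma adjusted *p* = 0.0127) and by 0.61 for *DHX58* (SE 0.204, adjusted *p* = 0.0240), where 12.6% of all genes were higher. For *MX1* the block 2 minus block 1 difference was 0.35 (SE 0.392, adjusted *p* = 0.555). Neither *OAS2* nor *DHX58* was called in this pair once the muscle mean was a covariate (0.57, adjusted *p* = 0.254, and 0.36, adjusted *p* = 0.335), when the *MX1* difference was -0.02.

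Block 3 was higher than block 1 by 1.55 for *OAS2*, 1.09 for *DHX58* and 1.78 for *MX1* (SE 0.291, 0.211 and 0.406, limma adjusted *p* = 7.89e-05, 0.000119 and 0.000839), against 13% of all genes. Block 4 was higher than block 1 by 1.70 for *OAS2*, 1.36 for *DHX58* and 1.57 for *MX1* (SE 0.281, 0.204 and 0.392, adjusted *p* = 6.35e-06, 8.79e-07 and 0.00164), against 16.5% of all genes. Every block 4 sheep lay above the block 1 median for *OAS2* and *DHX58*, while 2 of 16 lay below it for *MX1*. The *MX1* difference of block 4 from block 1 was not called with the muscle covariate (1.13, adjusted *p* = 0.0777), and its difference of block 3 from block 1 narrowly missed the threshold with the epithelial mean as a covariate (1.53, adjusted *p* = 0.0502).

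None of the 3 genes was called between blocks 2, 3 and 4. *MX1* was 1.43 above block 2 in block 3 (SE 0.406, unadjusted *p* = 0.000801) and 1.22 above block 2 in block 4 (SE 0.392, unadjusted *p* = 0.00284), but the limma adjusted *p* were 0.475 and 0.784. *DHX58* was 0.48 above block 2 in block 3 and 0.75 above it in block 4 (SE 0.211 and 0.204, unadjusted *p* = 0.0261 and 0.000449, limma adjusted *p* = 0.692 and 0.615). *OAS2* was 0.62 and 0.77 above block 2 in blocks 3 and 4 (SE 0.291 and 0.281, unadjusted *p* = 0.0367 and 0.00811, limma adjusted *p* = 0.735 and 0.908). No gene in the whole table was called for block 3 against block 2 (0%) or block 4 against block 2 (0%), although 1028 and 771 genes had an unadjusted *p* under 0.05. Block 4 and block 3 differed by 0.15 for *OAS2*, 0.27 for *DHX58* and -0.21 for *MX1* (SE 0.291, 0.211 and 0.406), and 0.0125% of all genes were called.

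Against the mean of the other 3 blocks, block 4 was higher for *DHX58* by 0.80 (SE 0.167, limma adjusted *p* = 0.00461) and for *OAS2* by 0.87 (SE 0.231, adjusted *p* = 0.0316), where 0.481% of all genes were higher. *MX1* was 0.86 higher in block 4 (SE 0.322, adjusted *p* = 0.137) and was not called. The *OAS2* call lay near the threshold. It was lost when any of 6 block 4 sheep was left out (oz179, oz190, oz235, oz35, oz43 or oz97, adjusted *p* 0.0518 to 0.0822), although the difference stayed between 0.78 and 0.87, and with muscle as a covariate (0.69, adjusted *p* = 0.167). The *DHX58* call was kept when each of the 62 sheep was left out in turn, and was lost when the fit was made on ranks (adjusted *p* = 0.0723).

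Block 3 differed from the others by 1.14 for *MX1* (SE 0.337, adjusted *p* = 0.102), 0.67 for *OAS2* (SE 0.242, adjusted *p* = 0.189) and 0.43 for *DHX58* (SE 0.175, adjusted *p* = 0.250), with 0.0749% of all genes higher and none of the 3 called by limma. Block 2 differed by -0.77 for *MX1* (SE 0.322, adjusted *p* = 0.571), -0.15 for *OAS2* and -0.21 for *DHX58*. No gene of the table was called for block 2 (0%), and 1243 had an unadjusted *p* under 0.05, *MX1* among them.

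The 3 genes belong to a list of 16 that the study annotates as type I interferon response and drew from networks that include these libraries, so the list is not independent of them. Of 58 interferon pathway genes fixed for this report, 16 had a symbol in the table, and these were the same 16. Symbols came from the study for only 1224 genes, and the 58 were chosen with earlier results known. The match is therefore not an independent check of the list. They were grouped by role for this report, although roles can overlap. The groups are 3 sensors (*DHX58*, *IFIH1*, *DDX58*), 6 effectors (*OAS2*, *MX1*, *EIF2AK2*, *RNF213*, *ZNFX1*, *MOV10*), 3 modifiers (*PARP9*, *PARP14*, *DTX3L*) and 4 genes of antigen presentation (*B2M*, *TAP1*, *PSMB8*, *PSMB9*).

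In block 1, 13 of the 16 were lower, against 19.4% of all genes, and the list's median difference was -0.73. All 3 sensors, all 3 modifiers and all 4 antigen presentation genes were lower, against 3 of 6 effectors. Among the 13 genes other than *OAS2*, *DHX58* and *MX1*, the largest difference was that of *PARP9*, an ADP-ribosyltransferase (-0.95, SE 0.201, limma adjusted *p* = 0.000147), and the smallest that of *ZNFX1*, a helicase (-0.03, SE 0.0844, adjusted *p* = 0.828). *RNF213* and *MOV10* were the other genes not called. With the muscle covariate, 5 of the 16 were lower, namely *OAS2*, *DHX58*, *IFIH1*, *PARP9* and *DTX3L*, against 1164 of all 16011 genes, and the list's median difference was -0.45.

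Against the mean of the other blocks, the low block 1 included, 5 of the 16 were higher in block 4 (0.481% of all genes), at a median difference of 0.51. They were *OAS2*, *DHX58* and the modifiers *PARP9*, *PARP14* and *DTX3L*. The largest value among the 13 others was that of *DDX58*, which encodes RIG-I, at 0.85 (SE 0.253, limma adjusted *p* = 0.0586), and the smallest were those of *PSMB8* and *ZNFX1*, both 0.08. No antigen presentation gene was called in block 4. The number of the 16 called in block 4 ranged from 1 to 8 when each sheep was left out in turn, against 118 to 596 of all 16011 genes.

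**Figure D2:**
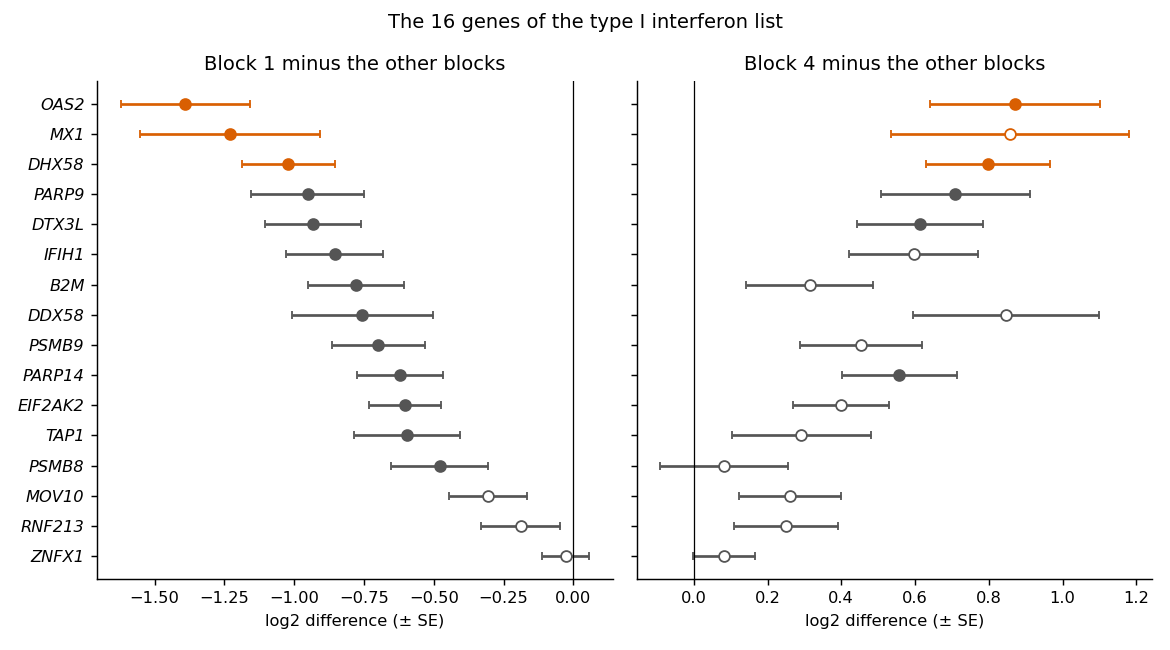
Log2 difference (horizontal axis, ± SE from limma) of block 1 from the other blocks (left) and of block 4 from the other blocks (right) for the 16 genes of the type I interferon list (vertical axis). Filled points have an adjusted *p* under 0.05 over all genes and open points do not, and *OAS2*, *DHX58* and *MX1* (orange) have the 3 lowest values in block 1.

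In the pairs with block 1, 3 of the 16 genes were higher in block 2 (*OAS2*, *DHX58* and *B2M*, a subunit of MHC class I), 14 in block 3 and 13 in block 4, where 12.6%, 13% and 16.5% of all genes were higher. For blocks 2, 3 and 4 in turn the list counts were 0, 7 and 7 with the muscle covariate, against 459, 867 and 692 of all 16011 genes. They were 0, 5 and 9 with the epithelial covariate, against 140, 148 and 386 of all genes. Without the 7 sheep of low epithelial mean they were 0, 6 and 8, against 3, 92 and 211 of all genes. *RNF213* and *ZNFX1* were called in none of these pairs. Between blocks 2, 3 and 4, no pair called any of the 16, against 0, 0 and 2 of all genes. The list's median difference was 0.53 for block 3 minus block 2, 0.57 for block 4 minus block 2 and 0.02 for block 4 minus block 3. In the same order, 12, 12 and 0 of the 16 had an unadjusted limma *p* under 0.05, against 1028, 771 and 1024 of all genes. Block 3 showed 0 of the 16 called against the other blocks at a median difference of 0.43, with 14 at an unadjusted *p* under 0.05 (2209 of all 16011 genes), and block 2 showed 0 at a median of -0.27, with 7 (1243 of all genes).

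The genes varied more between sheep than most. The SD over the 62 sheep was 1.36 log2 CPM for *MX1*, 1.06 for *OAS2* and 0.78 for *DHX58*, compared with a median of 0.398 over all genes. A larger SD than that of *MX1* was seen for 526 genes (3.29%), than that of *OAS2* for 13.2% of genes and than that of *DHX58* for 22.3%.

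A single sheep lay far out. Sheep oz238 of block 3 had 9.47 log2 CPM of *MX1*, or 708 CPM from 6534 reads, which is 3.05 scaled median absolute deviations above the median of the 62 sheep and was the only value of the 3 genes beyond 3. The same sheep had the highest *OAS2* (8.41 log2 CPM, 340 CPM) and the second highest *DHX58* (5.59 log2 CPM, 48.1 CPM), at 2.13 and 2.06 deviations. Its muscle mean was 5.95 log2 CPM, within the range of block 3, its epithelial mean of 8.16 log2 CPM was the highest of that block, and its library held 8674660 assigned reads, near the block 3 median of 8694507. No call of the 3 genes in any block comparison changed when oz238 was left out.

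Sheep that were extreme for a gene tended to be so for the others. Of the 5 highest sheep of each gene, 3 were shared by all 3 genes, namely oz238 of block 3 and oz43 and oz97 of block 4. Of the 5 lowest, oz109 and oz93 were shared, both of block 1 and both among the 7 sheep of low epithelial mean. Among the 10 highest of each gene, 6 were shared, 3 in block 3 and 3 in block 4, and among the 10 lowest, 4 were shared, all in block 1.

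*OAS2* and *DHX58* had *r* = 0.912 over the 62 sheep, *OAS2* and *MX1* had *r* = 0.907, and *DHX58* and *MX1* had *r* = 0.828, given here as a description because the study placed the genes together by their correlation in these libraries. After block means were removed, *r* was 0.852, 0.904 and 0.782. Over blocks 1 to 4 in turn, *r* was 0.662, 0.857, 0.919 and 0.905 for *OAS2* with *DHX58*, 0.779, 0.817, 0.964 and 0.947 for *OAS2* with *MX1*, and 0.622, 0.604, 0.867 and 0.885 for *DHX58* with *MX1*.

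**Figure D3:**
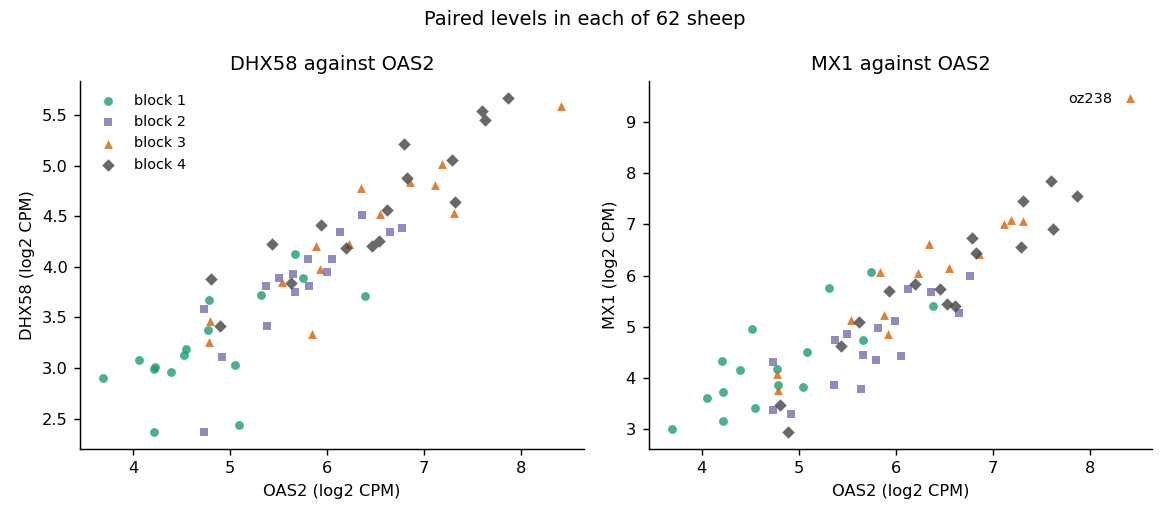
*DHX58* (left) and *MX1* (right) on the vertical axis against *OAS2* on the horizontal axis, all in log2 CPM, with each of 62 sheep a point marked by block. Points rise together in both panels (*r* = 0.912 and 0.907), block 1 sheep fill the lower left, and oz238 is the upper right point for *MX1*.

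The genes closest to each member were other genes of the interferon list and genes without a symbol in the tables used. Of the 10 genes of highest *r* with each member, 6 belonged to the list for *OAS2*, 7 for *DHX58* and 6 for *MX1*, and the others had no symbol. Those 30 places held 14 different genes, of which 6 appeared for all 3 members: *IFIH1*, which encodes MDA5, *EIF2AK2*, which encodes the kinase PKR, *PARP9*, its partner *DTX3L*, and the unnamed genes ENSOARG00000007233 and ENSOARG00000019272. *IFIH1* was first for *OAS2* (*r* = 0.942) and for *DHX58* (*r* = 0.926), and ENSOARG00000007233 was first for *MX1* (*r* = 0.911). The lowest *r* of any gene was -0.670 with *OAS2*, -0.719 with *DHX58* and -0.558 with *MX1*, so in each case the closest positive neighbor was closer than the closest negative. All of these are correlations over the same 62 libraries. The study drew the list from networks that include them, so close neighbors from the list were built in and are a description only. The list holds 16 of the 16011 genes, and only 1224 genes had a symbol, so most other genes could not be named as neighbors.

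Levels of the 3 genes were lower in samples with a higher muscle mean, called more muscle below. The study drew the muscle list from networks that include these libraries, so its mean is not an independent measure of muscle content. Pearson's *r* with the muscle mean was -0.538 for *OAS2* and -0.526 for *DHX58* (*n* = 62, permutation *p* = 1e-05 for each, the smallest that 100000 permutations can give) and -0.394 for *MX1* (permutation *p* = 0.00164). Spearman's rho was -0.563 (*p* = 1e-05), -0.559 (*p* = 1e-05) and -0.420 (*p* = 0.00073). In limma, the slope per log2 unit of the muscle mean was -1.51 for *OAS2* (SE 0.291, adjusted *p* = 1.10e-05), -1.10 for *DHX58* (SE 0.220, adjusted *p* = 2.04e-05) and -1.43 for *MX1* (SE 0.410, adjusted *p* = 0.00235). In the same fit 29% of all genes had a lower level with more muscle. CPM are shares of a library, and the part of this in the slopes was not tested. Without the 2 sheep farthest from the median muscle mean, *r* was -0.569, -0.555 and -0.431 for *OAS2*, *DHX58* and *MX1*.

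Within blocks, the relation with muscle stood out in block 4. There *r* was -0.777 for *OAS2*, -0.745 for *DHX58* and -0.653 for *MX1*, whereas over blocks 1 to 3 the values lay between -0.0854 (*MX1* in block 3) and -0.378 (*DHX58* in block 1). A test of whether slopes differed between blocks called none of the 3 genes (limma adjusted *p* = 0.540 for *OAS2*, 0.647 for *DHX58* and 0.639 for *MX1*, with 0.15% of all genes called), so a difference between the blocks was not shown. Removing block means left *r* = -0.358, -0.347 and -0.265 for *OAS2*, *DHX58* and *MX1*. With block as a covariate in limma, *OAS2* and *DHX58* kept their call (adjusted *p* = 0.00974 and 0.0135) and *MX1* did not (slope -0.92, adjusted *p* = 0.0668).

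**Figure D4:**
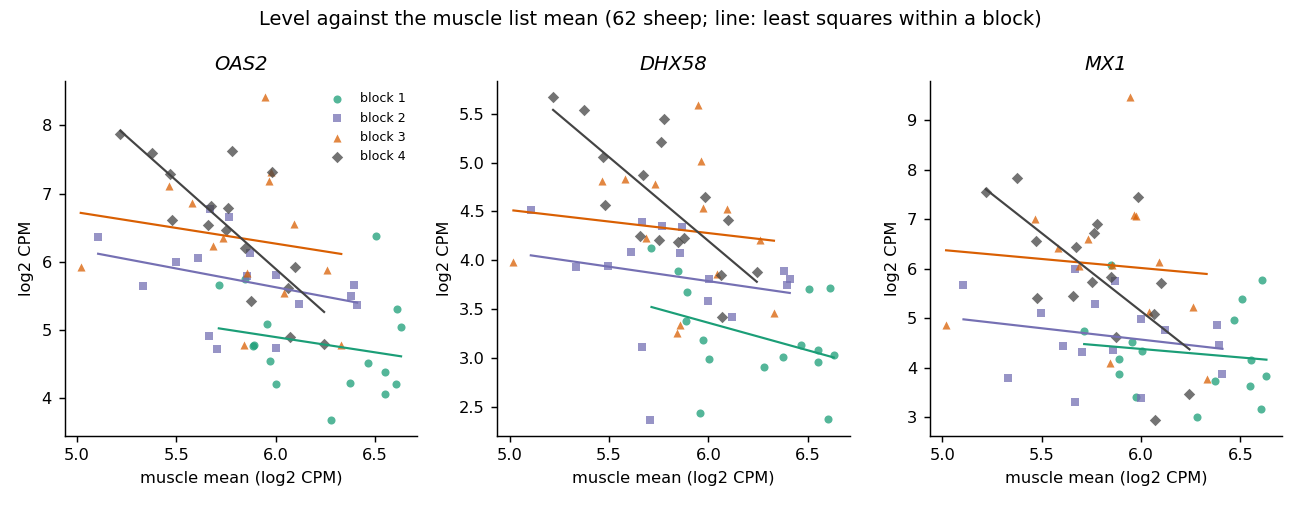
Level of *OAS2*, *DHX58* and *MX1* (log2 CPM, vertical axes) against the mean of 647 muscle genes (log2 CPM, horizontal axis) in 62 sheep marked by block, with a least squares line within each block. All lines slope down, most steeply in block 4, where *r* was -0.777, -0.745 and -0.653.

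Of the 16 interferon list genes, 14 had a lower level with more muscle, against 29% of all genes, with a median slope of -0.87, while *RNF213* and *ZNFX1* were not called. Among the 13 others the slope was steepest for *B2M* (-1.10, SE 0.184, limma adjusted *p* = 6.40e-07) and closest to 0 for *ZNFX1* (-0.003, SE 0.107, adjusted *p* = 0.984). With block as a covariate, 7 of the 16 had a lower level with more muscle, against 3892 of all 16011 genes, and the list's median slope was -0.52. Over the 62 sheep the epithelial mean had *r* = 0.444 with *OAS2*, 0.384 with *DHX58* and 0.325 with *MX1*, and assigned reads had *r* = 0.157, 0.203 and 0.0633, all as a description.

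The labels give the CH4 production, dry matter intake (DMI) and live weight of each sheep, and CH4 yield was computed as CH4 production per kg of DMI. Sheep oz151 was left out of CH4 yield and DMI because its labeled intake of 0.0795 kg per day is far below that of any other sheep. With the muscle mean, 15 relations of the 3 genes with 5 measures were computed.

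CH4 yield had a positive *r* with all 3 genes, none of which was called over all genes. It was 0.414 for *DHX58* (*n* = 61, permutation *p* = 0.00084, rho = 0.512, *p* = 4e-05), 0.329 for *OAS2* (*p* = 0.00821, rho = 0.456, *p* = 0.00039) and 0.258 for *MX1* (*p* = 0.0441, rho = 0.394, *p* = 0.00208). The limma slopes were 0.10 log2 units per g/kg for *DHX58* (SE 0.0271, adjusted *p* = 0.330), 0.10 for *OAS2* (SE 0.0376, adjusted *p* = 0.361) and 0.11 for *MX1* (SE 0.0497, adjusted *p* = 0.504). No gene of the table was called (0%), and 1521 had an unadjusted *p* under 0.05, these 3 included.

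Sheep oz175 of block 4 decided the calls for CH4 yield. It had the highest yield used, 35.7 g/kg on an intake of 0.376 kg per day, the next sheep, oz143 of block 3, having 27.9 g/kg, and it had 4.80 log2 CPM of *OAS2* and 3.48 of *MX1*, under the medians of 5.80 and 5.10 over the 62 sheep, and 3.88 of *DHX58*, close to the median of 3.94. Without it, limma called *DHX58* (slope 0.15, SE 0.0316, adjusted *p* = 0.0195) and *OAS2* (0.20, SE 0.0426, adjusted *p* = 0.0286) but not *MX1* (0.22, SE 0.0567, adjusted *p* = 0.141), together with 18 genes of the table in all, 7 of them in the interferon list. Without oz175 and oz143, *r* was 0.530 for *DHX58*, 0.506 for *OAS2* and 0.443 for *MX1*.

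The relation with CH4 yield did not hold evenly within blocks. In blocks 1 to 3, *r* was 0.530, 0.444 and 0.344 for *DHX58*, 0.337, 0.555 and 0.419 for *OAS2*, and 0.260, 0.401 and 0.385 for *MX1*. In block 4, which holds oz175, it was -0.07, -0.313 and -0.297. Slopes were not shown to differ between blocks (limma adjusted *p* 1.00 for all 3 genes, 0% of all genes called). The unadjusted *p* of this limma test were 0.181 for *DHX58*, 0.0314 for *OAS2* and 0.0808 for *MX1*, with 463 of all genes under 0.05. Without oz238 and oz97, 2 of the 3 genes were under 0.05, against 516 of all genes. Block and CH4 yield moved together, with mean yields of 19.0, 19.8, 20.8 and 22.6 g/kg in blocks 1 to 4. After block means were removed, *r* was 0.225 for *DHX58*, 0.132 for *OAS2* and 0.0821 for *MX1*. With block as a covariate, none of the 3 genes had an unadjusted limma *p* under 0.05, against 514 of all genes. The fits without oz175 had no block covariate, so their calls are not separated from block.

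**Figure D5:**
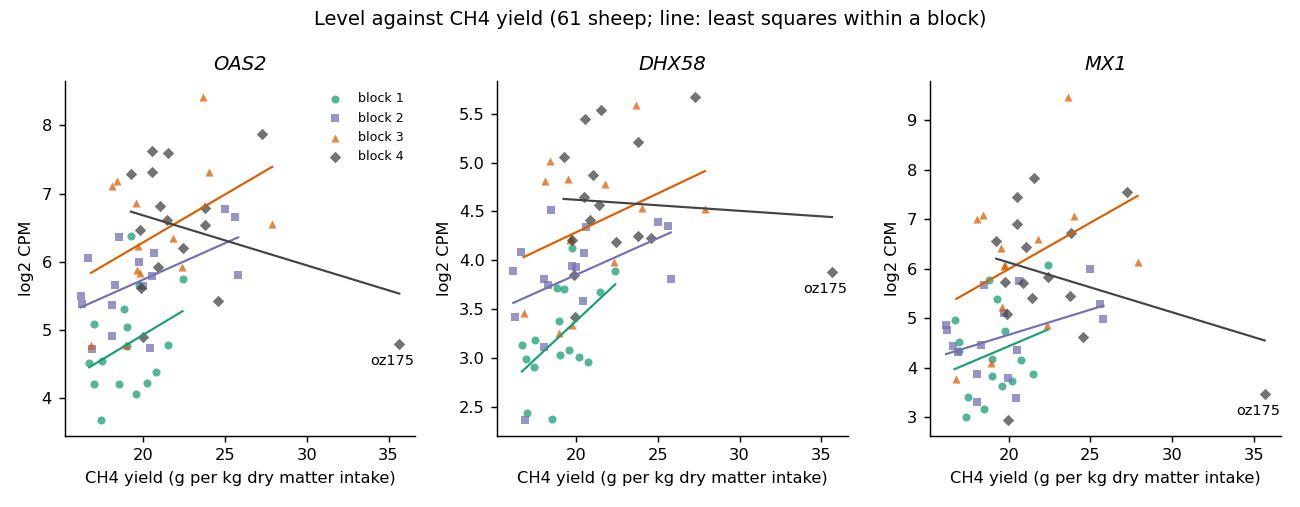
Level of *OAS2*, *DHX58* and *MX1* (log2 CPM, vertical axes) against CH4 yield (g per kg DMI, horizontal axis) in 61 sheep marked by block, with a least squares line within each block. Lines rise in blocks 1 to 3 and fall in block 4, which holds oz175 at 35.7 g/kg.

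DMI had a negative *r* with the 3 genes, again without a call over all genes. It was -0.333 for *MX1* (*n* = 61, permutation *p* = 0.00917, rho = -0.367, *p* = 0.00373), -0.294 for *DHX58* (*p* = 0.0215, rho = -0.322, *p* = 0.0121) and -0.266 for *OAS2* (*p* = 0.0392, rho = -0.298, *p* = 0.0192). The limma adjusted *p* were 0.249, 0.307 and 0.364, and 0% of all genes were called, with 1899 at an unadjusted *p* under 0.05. Without the 2 sheep farthest from the median intake (oz175 and oz97), *r* was -0.394, -0.271 and -0.293 for *MX1*, *DHX58* and *OAS2*. Block and intake moved together, with median intakes of 1.42, 1.24, 1.11 and 1.03 kg per day in blocks 1 to 4 (oz151 included in block 3). Removing block means, without oz151, brought *r* to -0.148, -0.039 and -0.025. Within blocks the values ran from -0.501 (*MX1* in block 2) to 0.275 (*OAS2* in block 4), and slopes were not shown to differ (lowest limma adjusted *p* 0.844, 0% of all genes called).

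No relation of CH4 production or live weight with the 3 genes was called at this number of sheep. For CH4 production, *r* was -0.0523 for *OAS2*, -0.0554 for *DHX58* and -0.180 for *MX1* (*n* = 62, permutation *p* = 0.686, 0.669 and 0.161), with rho of -0.0631, -0.094 and -0.179 (*p* = 0.626, 0.465 and 0.166). The limma adjusted *p* were 0.726 to 0.951 against 0.0125% of all genes called. Without oz132 and oz175, the 2 farthest from the median, *r* was -0.0901, -0.063 and -0.211, and within blocks it ran from -0.182 (*MX1* in block 2) to 0.279 (*OAS2* in block 4). The slopes on CH4 production were not shown to differ between blocks (0% of all genes called).

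For live weight, *r* was 0.025 for *OAS2*, 0.0749 for *DHX58* and -0.0808 for *MX1* (*n* = 62, permutation *p* = 0.847, 0.563 and 0.530), with rho of 0.0762, 0.0667 and -0.0377 (*p* = 0.555, 0.606 and 0.769). The limma adjusted *p* were 0.941 to 0.987 against 0.0187% of all genes called. Without oz93 and oz183, *r* was 0.142, 0.170 and -0.0044, and within blocks it ran from -0.312 (*MX1* in block 2) to 0.196 (*DHX58* in block 3). Slopes on live weight were not shown to differ between blocks either (0% of all genes called).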

How the data were processed

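Ventral rumen wall RNA of 62 AUS sheep was sequenced as stranded, ribosomal RNA depleted libraries. Per the study's methods and the submitters' processing notes, the authors aligned reads with TopHat and Bowtie2 and counted unique hits per gene with HTSeq, and edgeR and limma are also named. They deposited voom log2 CPM of 16011 genes, which include an offset of 0.5 reads and a normalized library size. Whole reads were recovered from 100% of the values (tolerance 0.01 reads). The methods state a minimum of 1 CPM, but 4390 genes fall below 1 CPM in some library.

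Symbols came from the study's tables (1224 genes). The reference gene table at hand shares no gene ID with the expression table, so coordinates and sequences were not used here. Blocks and measures were fitted with limma 3.58.1 (R 4.3.3; empirical Bayes, variance trend, Benjamini-Hochberg over all genes, threshold 0.05). The fit and its recovery of known changes were tested on simulated data. There, genes were independent and each had a single spread in all blocks. Correlation between genes and the wider spread of *MX1* in blocks 3 and 4 were therefore not covered by that check. Correlations used 2-sided permutation tests (100000, Python 3.11.15, scipy 1.17.1). The muscle mean is the mean log2 CPM of 647 genes. Of the 16-gene list, the largest and smallest values were named as examples, and sheep beyond 3 scaled median absolute deviations were named as outlying. Genes beyond these rules, and sheep behind lost calls, were named after their values were seen. The genes and lists were chosen with earlier results of these data known.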

Additional observations from a re-analysis of the deposited data

How the results depend on the processing

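Fits were repeated with another read offset, quantile normalization, ranks, precision weights, no variance trend, a 3 CPM minimum, sheep left out, and depth, block, muscle or epithelial covariates. The epithelial covariate, leaving out the 7 low-epithelial block 1 sheep, leaving out oz175 and leaving out each sheep in turn were chosen after seeing the data. Block results of *OAS2*, *DHX58* and *MX1* kept their side of the threshold and direction in 171 of 180 alternatives, pairs of blocks in 204 of 216, trait results in 150 of 162 and muscle results in 32 of 33, and the cause of the changes was not tested. *MX1* in block 1 was not called at -0.84 (muscle covariate), -0.99 (epithelial covariate) and -1.23 (without the 7 sheep). *OAS2* in block 4 was not called at 0.83 (without oz238 and oz97), 15.3 (ranks), 0.69 (muscle), 0.80 (epithelial) and 0.84 (without the 7), nor was *DHX58* at 18.1 (ranks). Block 2 minus block 1 was not called for *DHX58* with ranks, precision weights, either tissue covariate or without the 7 sheep, nor for *OAS2* in the last 3 of these settings. *MX1* was not called in block 4 minus block 1 with either tissue covariate or in block 3 minus block 1 with the epithelial one. *MX1* in block 2 minus block 1 became -0.025 with the muscle covariate, and its muscle slope was -0.92 and not called with block as a covariate.

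The slope on CH4 production, not called in any fit, changed sign to 0.0036, 0.017 and 0.012 for *DHX58* and 0.0062, 0.021 and 0.014 for *OAS2* without oz238 and oz97, with block, and with block and muscle. That of *OAS2* on live weight became -0.00038 with block, and on CH4 yield -0.00011 with oz151 kept. *DHX58* and *OAS2* were called on CH4 yield at 0.17 and 0.21 without oz175 and oz143, and at 0.15 and 0.20 without oz175.

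Of the 16 interferon list genes, 6 were called on CH4 yield without oz175 and oz143 and 7 without oz175, against 16 and 18 of all 16011 genes. The F test called 8 with the epithelial covariate and 8 without the 7 sheep. Block 1 called 5 (muscle), 5 (epithelial) and 6 (without the 7 sheep). Block 4 called 7 at the 3 CPM minimum (adding *DDX58* and *IFIH1*), 2 without oz238 and oz97, 2 with no variance trend, 2 with precision weights, 2 without oz151, 1 with muscle, 1 with the epithelial covariate, 1 without the 7 sheep, each including *DHX58*, and 0 with ranks. In the same order, these block 4 settings called 338 (of 9939 tested), 113, 272, 197, 263, 74, 105, 49 and 24 of all genes. The muscle slope called 7 with block, against 7426 of all genes. Over all genes, calls for block 1 numbered 5860 and fell to 2369 (muscle), 1117 (epithelial) and 594 (without the 7 sheep), those of the F test numbered 4242 and were 1428, 576 and 273 in the same settings, and those for block 4 numbered 310 and ranged from 24 to 341. Pairs with block 1 called 3592, 3916 and 4914 genes for blocks 2, 3 and 4, and 5, 259 and 563 without the 7 sheep. Block 3 called 23 genes, with 1 to 120 over the alternatives. CH4 production called 2 (0 to 41), CH4 yield 0 (0 to 18), DMI 0 (0 to 5) and live weight 3 (0 to 78).

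No paired analysis was possible because each sheep gave a single library and the labels give no number that links sheep of different blocks. With 29 reads at the lowest, *DHX58* is the gene whose low values are most coarse.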

Other observations

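Differences between the genes within a sheep varied by block. The log2 difference *MX1* minus *OAS2* averaged -0.50 ± 0.57, -1.08 ± 0.47, -0.27 ± 0.55 and -0.63 ± 0.57 in blocks 1 to 4 (SD), and differed between blocks in a permutation test of F chosen after the values were seen (F = 6.06, *p* = 0.0011, 1 of 3 such tests). *MX1* minus *DHX58* averaged 1.07, 0.81, 1.76 and 1.27 (F = 3.86, permutation *p* = 0.0133), and *OAS2* minus *DHX58* averaged 1.57, 1.88, 2.02 and 1.90 (F = 2.92, permutation *p* = 0.0419). Gene length enters each level, so only changes of these differences between blocks can be read, not their size or sign.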
